A study of Mus musculus with 12 samples.

Results

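Interferon gamma, encoded by Ifng, is the defining cytokine of Th1 helper T cells, which direct macrophages against intracellular microbes. The gene shares a stretch of mouse chromosome 10 with Il22, the gene of a cytokine that acts on epithelia, and with Mdm1, a centriole protein gene that borders the cytokine genes. T-bet, the T-box factor encoded by Tbx21, drives Ifng in Th1 cells, the related T-box factor Eomes does so chiefly in CD8 T cells and NK cells, and the homeobox factor Hlx works together with T-bet. Cytosine methylation (5mC) is a repressive mark at cytokine promoters, and 5-hydroxymethylcytosine (5hmC) is the product that Tet enzymes make when they oxidise 5mC. The members described here are these 6 genes, picked by symbol from a table of 37544 gene areas with 1 row per symbol, and all 6 passed the filter on low values. A gene area is the span between the start and end that the table gives for a gene on mouse build mm9, and its value is the mean signal over that span.

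The 12 libraries came from mouse T cells by DNA immunoprecipitation sequencing, in which denatured genomic fragments are captured with an antibody. Th1, Th2, iTreg (induced regulatory), Th17 and naive T cells each gave 1 library with an antibody against 5hmC and 1 with an antibody against 5mC, and from Th17 cells there were in addition an IgG control and an unprecipitated input. The series used mice with CD2-Cre and floxed Tet2 alleles, in which Cre is driven from a lymphocyte promoter, and wild-type littermates on a mixed background. The labels do not say which genotype, age or culture time stood behind each library, nor whether animals were pooled. With 1 library per cell type and antibody, cell types could not be tested against each other, and their differences have no replicate check. Signal from a mixed population cannot tell a larger share of marked cells from more marking per cell.

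The median signal over all gene areas was 9.9 to 12 in the 5hmC libraries, 0.6 to 0.7 in the 5mC libraries, 0.8 in IgG and 1.7 in input. Read numbers are unknown, so no counting interval can be given. Naive markers had their highest 5hmC in the naive library at 5 of 5 genes, Th2 markers in Th2 at 3 of 4, and Th1 markers in Th1 at 2 of 4. Those 2 are the members Ifng and Tbx21, while Cxcr3 and Il12rb2 were highest in naive cells, so the Th1 label has no check from other genes here. Th17 markers had their highest 5hmC in the Th17 library at 0 of 5 genes. Il17a, the cytokine that defines Th17 cells, had 8.8 in the 5hmC library labelled Th17 and 31.3 in the one labelled iTreg. These 2 5hmC libraries are therefore called the libraries labelled iTreg and Th17 throughout, and whether the other libraries carry the right label was not tested. The summed 5hmC of 6 CD8 T and NK cell markers, a class that also uses Ifng, Tbx21 and Eomes, was 130.3 in Th1, 116 in Th2, 129.8 under the iTreg label, 99.1 under the Th17 label, and 204.1 in naive cells. Cd8a and Cd8b1 made up most of the naive sum (78 and 80.2) and were highest in naive cells. Klrd1 and Gzma were highest in Th1 (17.9 and 19.1, against 8.9 and 14.1 in naive cells). Ncr1 was highest under the iTreg label and Klrk1 under the Th17 label. None of these 6 genes was at 0 in any 5hmC library, and the part of other cell types in the results was not tested.

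Both marks sit mainly on cytosines that a guanine follows (CpG), so the promoters of 4 members are shown for their CpG content. Each window holds the 250 bases before the RefSeq start of the gene on build GRCm38.p6, with CpG in capitals, read 5′ to 3′ on the strand of the gene. The windows end where the genes begin. The deposited gene areas lie downstream, so the values below do not measure these CpGs.
Ifng, chr10:118440796-118441045, plus strand: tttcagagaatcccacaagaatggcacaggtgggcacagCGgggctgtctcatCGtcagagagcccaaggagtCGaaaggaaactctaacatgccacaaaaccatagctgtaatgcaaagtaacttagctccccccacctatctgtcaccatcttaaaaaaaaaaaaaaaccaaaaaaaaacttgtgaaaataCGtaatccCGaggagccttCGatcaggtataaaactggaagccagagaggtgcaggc
Tbx21, chr11:97115332-97115581, minus strand: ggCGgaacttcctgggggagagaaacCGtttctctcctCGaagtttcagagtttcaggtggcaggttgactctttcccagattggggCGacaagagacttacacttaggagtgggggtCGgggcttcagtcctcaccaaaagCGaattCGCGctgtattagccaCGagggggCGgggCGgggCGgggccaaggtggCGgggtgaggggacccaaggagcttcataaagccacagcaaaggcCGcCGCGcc
Eomes, chr9:118477939-118478188, plus strand: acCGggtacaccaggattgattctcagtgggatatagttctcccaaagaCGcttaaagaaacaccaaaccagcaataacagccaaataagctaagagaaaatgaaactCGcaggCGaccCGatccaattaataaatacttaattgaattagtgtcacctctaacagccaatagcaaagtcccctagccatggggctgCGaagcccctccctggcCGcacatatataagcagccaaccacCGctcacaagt
Hlx, chr1:184732494-184732743, minus strand: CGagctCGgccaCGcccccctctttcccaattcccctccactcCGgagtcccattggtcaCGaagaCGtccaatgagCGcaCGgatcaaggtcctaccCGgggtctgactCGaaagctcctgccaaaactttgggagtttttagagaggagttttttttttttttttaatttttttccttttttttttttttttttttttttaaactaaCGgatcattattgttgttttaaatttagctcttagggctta

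The Ifng window held 6 CpGs, the median of the 32851 RefSeq windows of this kind, and the Tbx21 window held 16, a number reached by 25.4% of windows. Eomes had 8 and Hlx 11, while the windows of Il22 and Mdm1, not printed, had 3 and 20. The letters TATAAA stood in the last 50 bases before the start at Ifng and at none of the other 5 members, against 2.63% of all windows (sense strand). The Il22 window also holds TATAAA, but farther from the annotated start than those 50 bases. The T-box half-site AGGTGTGA, searched also as TCACACCT, was in none of the 6 windows, and 1.12% of all windows hold it.

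Ifng (chr10:117878102-117882947, plus strand, mm9) carried its highest 5hmC in Th1 cells. Its 5hmC signal was 22.6 in Th1, 14.3 in Th2, 14 under the iTreg label, 8.9 under the Th17 label, and 10 in naive cells. Th1 thus stood above the other 4, Th2 and the library labelled iTreg lay close together, and naive cells and the library labelled Th17 formed the low end. Th1 had 2.26-fold the naive signal, a log2 difference of 1.16, and 1.58-fold the Th2 signal. The log2 difference of Th1 from the mean of the other 4 was 0.96, which 0.390% of gene areas of at least 3000 bp exceeded, and it came to 1.04 under upper-quartile scaling. All log2 differences are on the scale of log2(signal + 0.2), which understates the change of low gene areas.

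Il22 (chr10:117642019-117647102, plus strand, mm9) had more 5hmC in all 4 differentiated libraries than in naive cells. Its 5hmC was 25 in Th1, 24 in Th2, 17.6 under the iTreg label, 16.1 under the Th17 label, and 10 in naive cells. Th1 and Th2 were nearly level, and no library overlapped the naive value. The log2 differences from naive were 1.30 in Th1, 1.25 in Th2, 0.80 in the library labelled iTreg and 0.68 in that labelled Th17. The cytokine is mostly made by Th17 and Th22 cells and by innate lymphoid cells, yet neither library with an iTreg or Th17 label reached the Th1 or Th2 value. All 4 libraries above naive is a pattern that 18.4% of gene areas share.

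Mdm1 (chr10:117578842-117606054, plus strand, mm9) differed less between cell types. Its 5hmC was 16.7 in Th1, 19.4 in Th2, 14.7 under the iTreg label, 10.6 under the Th17 label, and 16.6 in naive cells. Th2 was highest, Th1 and naive cells were level, and the library labelled Th17 was lowest. No difference from naive reached 2-fold, and that of Th1 was 0.0086 on the log2 scale.

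Tbx21 (chr11:96959320-96976644, minus strand, mm9) had the strongest 5hmC of the 6 and the widest range. Its 5hmC was 54.8 in Th1, 34.9 in Th2, 20 under the iTreg label, 18.4 under the Th17 label, and 21.7 in naive cells. Th1 was highest, above 98.5% of gene areas in that library, Th2 was next, and the libraries labelled iTreg and Th17 lay just under naive. That small deficit turned positive under median-ratio scaling (log2 difference 0.039 under the iTreg label, 0.060 under the Th17 label) and upper-quartile scaling (0.23 and 0.29). Th1 had 2.53-fold the naive signal (log2 difference 1.33) and 1.57-fold the Th2 signal. Against the mean of the other 4, the log2 difference was 1.25, rank 17 of 20025 gene areas of at least 3000 bp. Against naive and Th2 alone, without the libraries whose labels are in doubt, it was 0.99, just under 2-fold.

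Eomes (chr9:118387306-118395249, plus strand, mm9) was highest in naive cells. Its 5hmC was 12.7 in Th1, 11.5 in Th2, 13 under the iTreg label, 12.5 under the Th17 label, and 20.4 in naive cells. The 4 differentiated libraries lay within a narrow band below naive, with log2 differences of -0.68, -0.82, -0.64 and -0.70 in the same order. The medians of all gene areas were also below naive, at -0.26, -0.21, -0.24 and -0.37. Under upper-quartile scaling the Eomes differences shrank to -0.29, -0.50, -0.30 and -0.17. A value below naive in all 4 was found in 44.9% of gene areas. The pair of T-box genes therefore differed in where 5hmC was highest, Th1 for Tbx21 and naive for Eomes.

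Hlx (chr1:186551021-186556371, minus strand, mm9) was lowest in Th2, with Th1 next. Its 5hmC was 9.7 in Th1, 7.4 in Th2, 13.5 under the iTreg label, 12.3 under the Th17 label, and 11.5 in naive cells. Its log2 difference in Th1 was -0.24 from naive (0.14 under upper-quartile scaling) and 0.38 from Th2. The whole range of this gene was 1.82-fold, against 2.98-fold at Tbx21, 2.54-fold at Ifng, 2.50-fold at Il22, 1.83-fold at Mdm1 and 1.77-fold at Eomes.

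**Figure D1:**
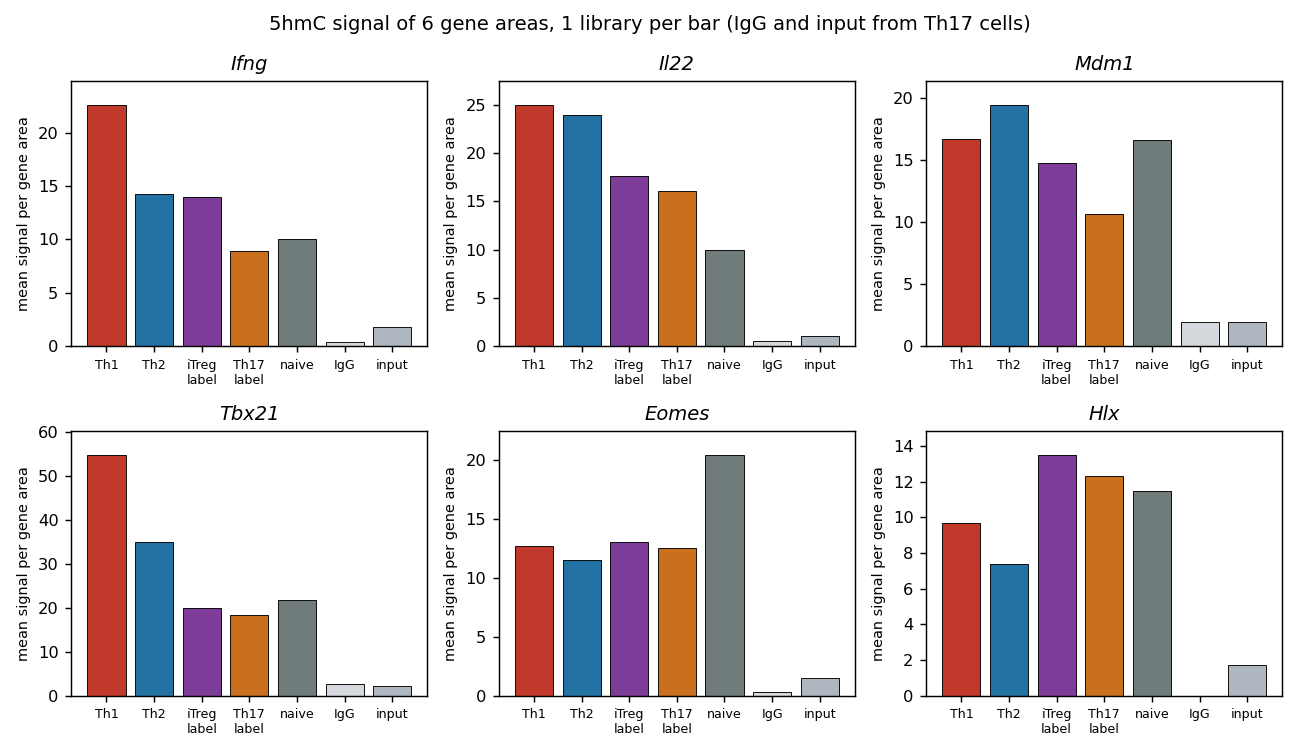
Mean 5hmC signal per gene area (vertical axis) in each library (horizontal axis) for the 6 genes, with IgG and input from Th17 cells at the right of each panel; each bar is 1 library. Th1 is highest at Ifng (22.6), Il22 (25) and Tbx21 (54.8), and naive is highest at Eomes (20.4).

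A higher 5hmC value in Th1 than in naive cells was common, at 35.6% of gene areas, but a 2-fold one was not. By a rule of size, at least 2-fold (log2 difference of 1), 3 of the 6 members were higher in Th1 than in naive cells (Ifng, Il22 and Tbx21), against 4.38% of the 28159 gene areas that pass the filter and 1.66% of those of at least 3000 bp. The members are 4846 to 27213 bp long. In Th2 only Il22 was at least 2-fold above naive (background 4.9%). In the libraries labelled iTreg and Th17, 0 of 6 were with the values as deposited (background 4.56% and 4.66%). Under upper-quartile scaling Il22 passed 2-fold in both, with a log2 difference of 1.14 under the iTreg label and a larger one under the Th17 label. With median-ratio scaling Il22 stayed just under 2-fold in both. None of the 6 was at least 2-fold below naive in Th1, Th2 or the libraries labelled iTreg and Th17, where 16.1%, 14.8%, 14.8% and 25.7% of gene areas were. Against the mean of the other 4 libraries, Th1 was at least 2-fold higher at 1 of 6, Tbx21, with a background of 2.26% of all gene areas and 0.315% of those of at least 3000 bp. Directly against Th2, Th1 was at least 2-fold higher at 0 of 6 (background 3.77%). These comparisons share libraries, the naive one above all.

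**Figure D2:**
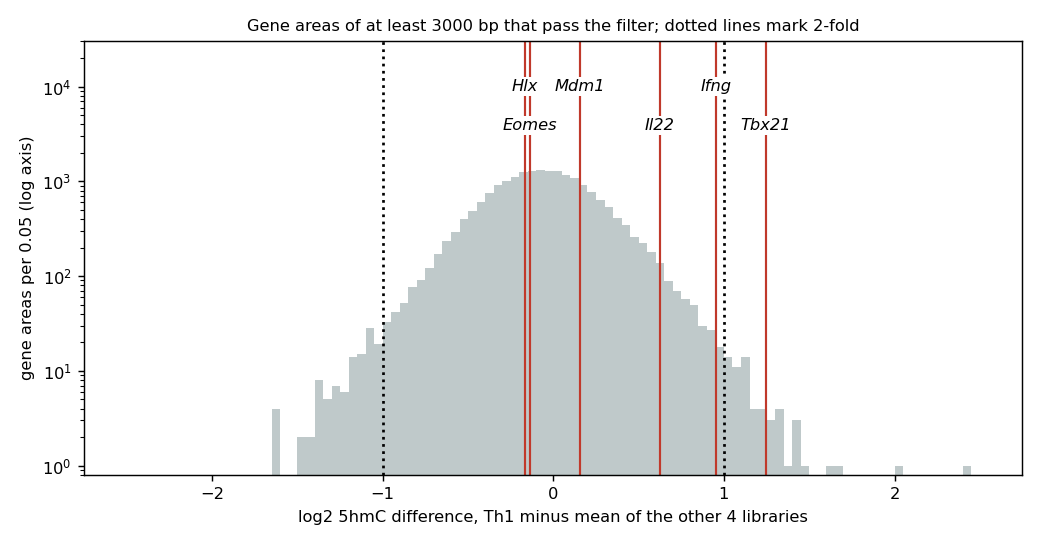
Number of gene areas of at least 3000 bp (vertical log axis) by the log2 5hmC difference of Th1 from the mean of the other 4 libraries (horizontal axis), with the 6 genes as red lines and 2-fold as dotted lines. Tbx21 (1.25) and Ifng (0.96) lie in the upper tail, Il22 (0.62) on its shoulder, and Mdm1 (0.16), Eomes (-0.14) and Hlx (-0.17) in the bulk.

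The gene areas around Ifng differed in where 5hmC was highest. The Il22 gene area ends 231 kb before Ifng and that of Mdm1 272 kb before it. Within 500 kb of Ifng the table holds 20 other gene areas, 15 before and 5 after. Of the 10 gene areas in this window that pass the filter, Ifng included, 5 peaked in naive cells for 5hmC, near the 44.9% of all gene areas that do so, and 2 peaked in Th1, namely Ifng and Il22. Those 5 all lie after Ifng, and at the 5 up to and including Ifng the Th1 value exceeded the naive one. Dyrk2, a protein kinase gene 413 kb after Ifng, had 19.4 in Th1 and 75.2 in naive cells. Gm9049, annotated by RefSeq as a pseudogene and ending 36.1 kb before Ifng, had more 5hmC than Ifng in every cell type, with 46.1 in Th1, 36.7 in Th2, 36.3 under the iTreg label, 48 under the Th17 label, and 36.9 in naive cells. Its profile was flatter than that of Ifng.

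Most gene areas between Il22 and Gm9049 gave little signal. Of the 20 other gene areas, 11 had an input signal of at most 0.5, as did 6.98% of all gene areas, and their highest 5hmC was 7.4. These 11 are predicted genes, most of them annotated as pseudogenes, and among them lies Iltifb, a close paralog of Il22. Iltifb had 12 in Th1, 26.8 in Th2, 11.2 under the iTreg label, 11.1 under the Th17 label, and 10.6 in naive cells, so its highest value was in Th2, while Il22 was high in Th1 and Th2. The input signal was 1 at Il22 and 0.9 at Iltifb, below the library median of 1.7. How reads that match several places were handled is not given in the sources used here, so reads of this pair of genes may be shared or lost, and the values of both are uncertain.

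**Figure D3:**
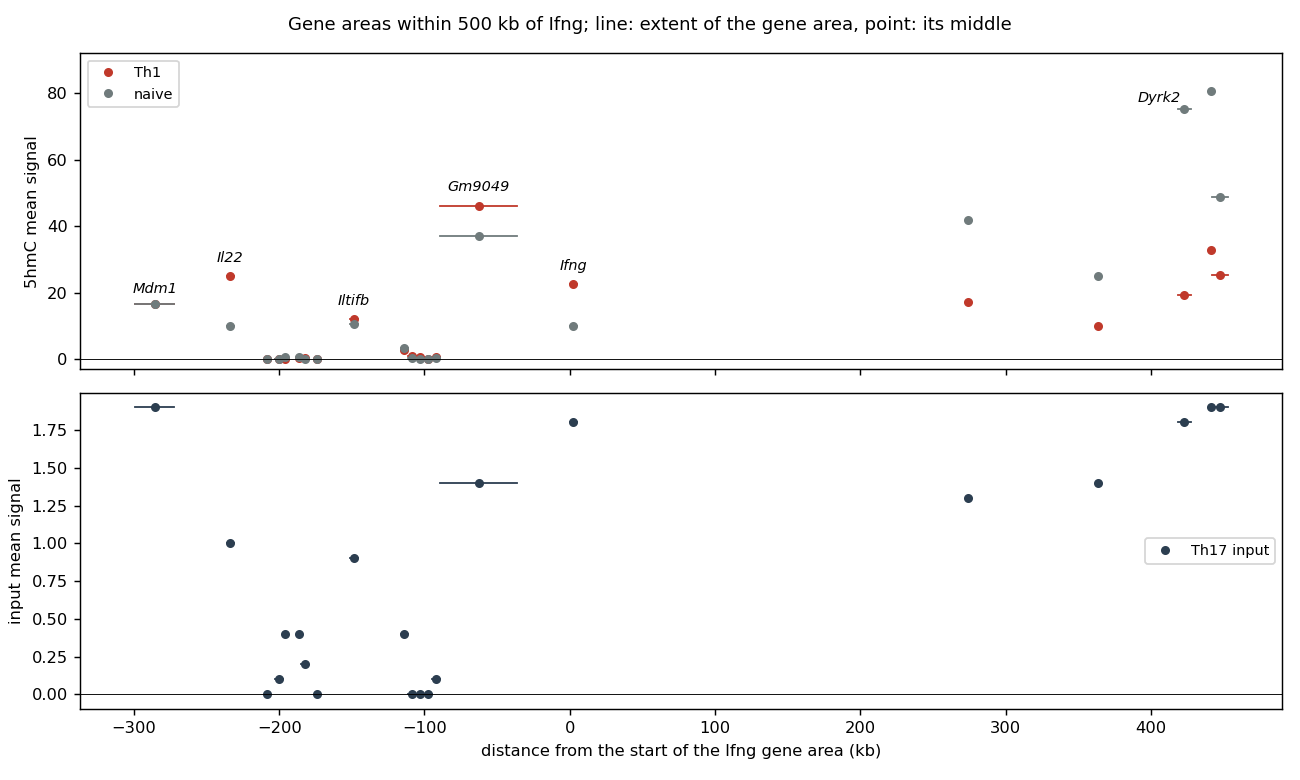
Mean 5hmC signal in Th1 and naive libraries (upper panel) and mean signal in Th17 input (lower panel) for gene areas within 500 kb of Ifng, by distance from the start of Ifng in kb. Th1 lies above naive at Ifng (22.6 against 10), Il22 (25 against 10), Gm9049 (46.1 against 36.9) and, by little, Iltifb and Mdm1, naive lies above Th1 at the gene areas after Ifng, and 11 gene areas before Ifng have hardly any input.

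The 5mC values of the 6 genes were low, and rounding to 1 decimal limits what they can show. Their ranges over the 5 cell types were 2.75-fold at Ifng, 2.33-fold at Il22 and 1.22-fold to 1.8-fold at the other genes. At Ifng the 5mC signal was 1.1 in Th1, 0.7 in Th2, 0.8 in iTreg and 0.4 in Th17, against 0.7 in naive cells. Th1 was thus highest for 5mC as well as 5hmC, and its log2 difference from naive was 0.53, with 0.40 to 0.67 allowed by rounding alone. In 5mC, Th1 lay above the mean of the other 4 libraries at 71.6% of all gene areas. Tbx21 had 1.1 in Th1, 0.9 in Th2, 1 in iTreg and in Th17, and 0.9 in naive cells, a spread of 2 rounding steps. Both marks were highest in Th1 at these 2 genes, as at 2.54% of gene areas, although at Tbx21 the 5mC difference is near the rounding.

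Il22 was the one member whose 5hmC lay above naive and whose 5mC lay below naive in all 4 differentiated cell types, a pattern seen at 5.36% of gene areas and looked for after its values were seen. Its 5mC was 0.5 in Th1, 0.3 in Th2, 0.4 in iTreg and 0.3 in Th17, against 0.7 in naive cells. The log2 difference was -0.85 in Th2 and in Th17, and rounding allows -1.08 to -0.63. The paralog Iltifb had 5mC of 0.5 in Th1, 0.4 in Th2 and in iTreg and 0.7 in Th17, against 0.2 in naive cells. Iltifb thus lay above naive in all 4, the other way from Il22, and the part of reads shared by the pair was not tested. Hlx carried high 5mC for a gene area, 1.7 in Th1, 1.4 in Th2, 1.1 in iTreg and 1.3 in Th17, against 1.9 in naive cells. All 4 lay below naive, as at 23.1% of gene areas, and the naive value exceeded 94.0% of gene areas in that library.

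Mdm1 had 5mC of 1.8 in Th1, 1.6 in Th2, 1 in iTreg and 1.5 in Th17, against 1.4 in naive cells. Eomes had 0.8 in Th1, 0.5 in Th2 and in iTreg, and 0.9 in Th17, against 0.8 in naive cells. Th1 was highest at Mdm1, and Th17 was highest at Eomes. By the 2-fold rule, 0 of the 6 members had higher 5mC than naive in Th1, Th2, iTreg or Th17, where the background was 2.68%, 1.84%, 1.6% and 1.81%. Likewise 0 of 6 were lower, with a background of 2.67%, 3.81%, 5.54% and 4.72%. Il22 missed the limit in Th2 and in Th17 with the pseudocount of 0.2, although its deposited ratio to naive was 0.429 in both. With a pseudocount of 0.1 the log2 difference is -1, which meets the rule. Rounding alone leaves the side of the limit open (-1.08 to -0.63). Under median-ratio scaling the log2 difference was -0.74 in Th2 and -0.68 in Th17.

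**Figure D4:**
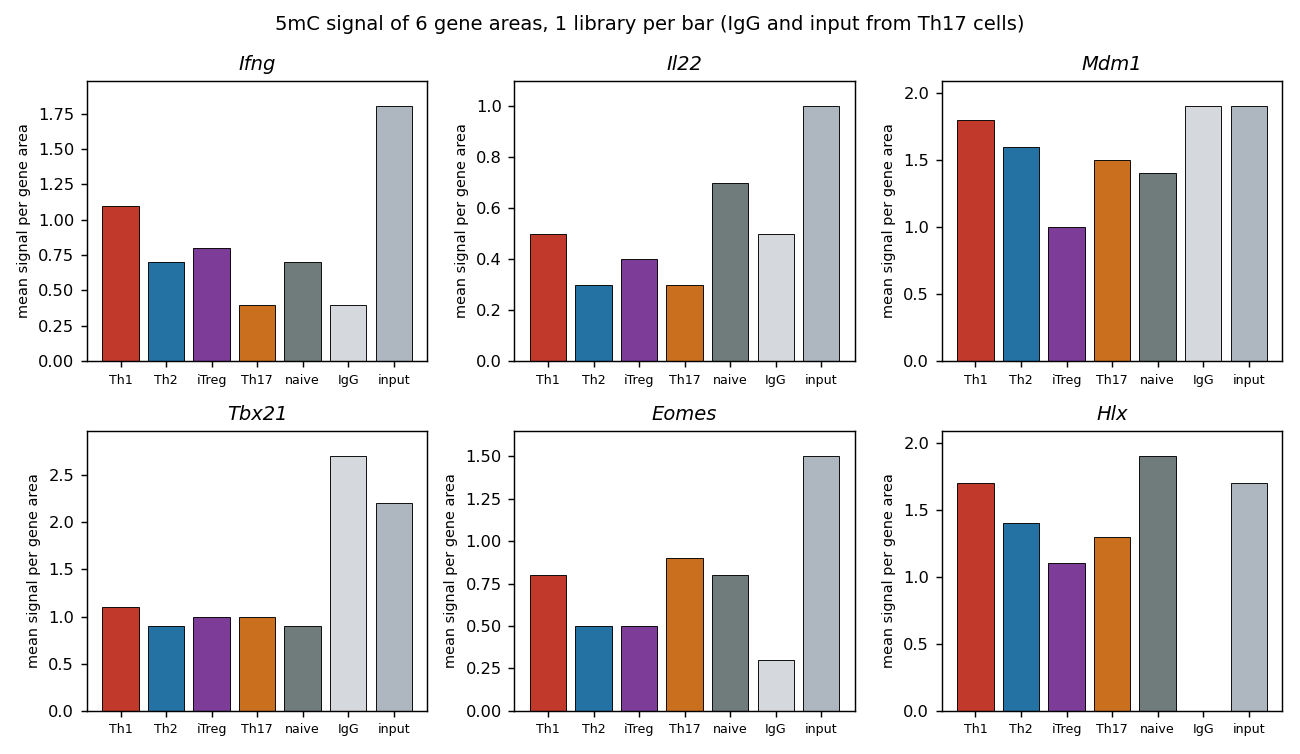
Mean 5mC signal per gene area (vertical axis) in each library (horizontal axis) for the 6 genes, with IgG and input from Th17 cells at the right; each bar is 1 library. The 5mC bars lie below input at every gene but Hlx, where naive cells have the largest value, 1.9, against an input of 1.7.

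The control libraries came from Th17 cells, and the 5hmC library set against them is the one labelled Th17, whose label is in doubt. The 5hmC library labelled Th17 was at least 2-fold above input at 6 of 6 members and above IgG at 6 of 6, as were 97.5% and 97.4% of gene areas. Ifng had the smallest ratio to input, with 8.9 for 5hmC against 1.8 (4.94-fold), and Il22 the largest, with 16.1 against 1 (16.1-fold). With the library labelled iTreg in its place, the log2 difference from input was 2.83 to 3.89 over the 6 genes. Tbx21 had the highest IgG signal of the 6, 2.7, against 18.4 for 5hmC in the library labelled Th17 and 54.8 in Th1. Eomes had an IgG signal of 0.3, and Hlx is listed at 0. When each library was divided by its own median, the 5hmC value fell below the input value at Ifng and Mdm1 (log2 difference -0.20 and -0.052) and below IgG at Tbx21 and Mdm1 (-0.80 and -1.02). Scaling between libraries is not known, so the values as deposited do not settle enrichment over input at single genes.

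As deposited, the 5mC signal of Th17 cells lay below that of input at 6 of 6 members, and at least 2-fold below at Ifng, Il22 and Tbx21, where 60.9% of gene areas were that low. This order depends on the scale of the libraries. With each divided by its own median, 5mC lay above input at Mdm1, Hlx, Eomes and Tbx21 (log2 difference 1.03, 0.98, 0.65 and 0.32) and less than 2-fold below it at Ifng and Il22 (-0.54 and -0.17). Tbx21 stood at the 2-fold limit itself on the log2 scale, where rounding allows -1.09 to -0.91. Against IgG, 5mC had the same value at Ifng (0.4 each), was 3-fold higher at Eomes (0.9 against 0.3) and lower at Il22 (0.3 against 0.5), Mdm1 (1.5 against 1.9) and Tbx21 (1 against 2.7). At Hlx it was 1.3, where IgG is listed at 0.

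The antibodies were compared over the 5 cell types with limma across all gene areas, each library centred on its median, so that a positive value means more 5hmC, relative to the median gene area, than 5mC. Il22 was the one member called higher, with a log2 difference of 1.11 ± 0.28 (SE, n = 5 cell types, limma adjusted p = 0.0144), among 12.9% of gene areas called higher. Hlx was the one called lower, at -1.02 ± 0.21 (SE, n = 5, limma adjusted p = 0.00506), among 5.99% called lower. These shares depend on the filter: with none, 3607 of 37544 gene areas were called higher and 6035 lower. The Il22 call was lost without Th1 (1.00, limma adjusted p = 0.0514), without Th2 (0.93, limma adjusted p = 0.0528) and without iTreg and Th17 together (1.03, limma adjusted p = 0.118). Reads that Il22 may share with Iltifb make this call uncertain too. The Hlx difference dropped under 2-fold without naive, Th1 or Th2 cells (-0.95, -0.96 and -0.88).

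Tbx21 had a log2 difference of 0.82 ± 0.24 (SE, n = 5, limma adjusted p = 0.0269), under the 2-fold that a call also needed. Mdm1 was at -0.49 ± 0.17 (limma adjusted p = 0.0510), Eomes at 0.24 ± 0.17 (limma adjusted p = 0.287) and Ifng at 0.15 ± 0.17 (limma adjusted p = 0.524). With cell type as a block, the limma standard errors reflect how much the difference between 5hmC and 5mC varied between cell types, not replicates. Without the iTreg and Th17 cell types, Tbx21 was called higher at 1.17 (limma adjusted p = 0.0371).

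**Figure D5:**
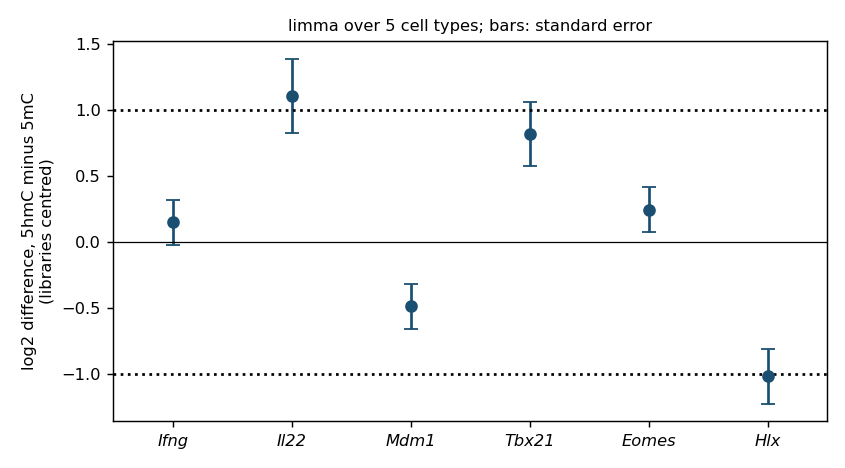
Log2 difference of 5hmC from 5mC (vertical axis, libraries centred on their medians) for the 6 genes, with standard errors from limma over 5 cell types and 2-fold as dotted lines. Il22 (1.11) and Hlx (-1.02) lie just beyond 2-fold on opposite sides, and Ifng (0.15) lies near 0.

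Other genes of the Th1 programme shared the higher Th1 signal only in part. The list holds 32 genes, 4 of them members, and in 21 Th1 exceeded the mean of the other 4 libraries in 5hmC, with a median log2 difference of 0.15 against -0.059 for all gene areas, of which 43.4% lay above 0. Without the 4 members, 19 of 28 lay above 0 and the median stayed at 0.15. Against naive and Th2 alone, the median of the list was -0.039. At least 2-fold higher were Tbx21 and Gzmb, a cytotoxic protease, with 35.1 in Th1 against 17.1 in Th2, 14.2 in each of the libraries labelled iTreg and Th17, and 18.9 in naive cells. At the low end stood the transcriptional inhibitor Id2, with 18 in Th1 and 50.4 in Th2, and the pore-forming protein gene Prf1, with 26.7 in Th1 and 46.9 in Th2. Against naive cells, 4 of 32 were at least 2-fold higher in Th1 and 4 at least 2-fold lower, beside 4.38% and 16.1% of all gene areas. The median difference was -0.25 for the list and -0.26 for all gene areas.

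As a set, genes that carry the interferon gamma signal lay near all gene areas in the Th1 difference from the other 4 libraries. Of 15 such genes, 6 were above the mean of the other libraries in Th1, with a median of -0.13. Of all gene areas, 43.4% were above it, with a median of -0.059. The highest were Irf8, an interferon-responsive transcription factor with 51 in Th1 against 26.1 to 38.1 elsewhere, and Jak2, a receptor kinase with 65.1 in Th1 and 94.8 in Th2. The lowest were the GTPase gene Gbp2 and the kinase gene Jak1, with log2 differences of -0.52 and -0.56. Against naive cells, 8 of 15 were at least 2-fold lower in Th1, where 16.1% of all gene areas were. So were 6 in Th2, 7 under the iTreg label and 11 under the Th17 label (background 14.8%, 14.8% and 25.7%). Both receptor chain genes had less 5hmC in Th1 than in naive cells, Ifngr1 with 21.8 against 47 and Ifngr2 with 50.4 against 100.9.

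Of 12 genes that induce Il22 or carry its signal, 5 were above that mean in Th1, with a median of -0.16. Of all gene areas, 43.4% were above it, with a median of -0.059. Stat3, which transmits the Il22 signal, stood at 0.28. Jak1 (-0.56) and Il22ra2, the gene of a soluble Il22 decoy receptor (-0.83), were lowest.

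Among the T-box genes, Tbx21 had the largest difference. Of 17 family members measured, 15 passed the filter, 7 were above that mean in Th1 and 1, Tbx21, was at least 2-fold higher, with a median of -0.050. Of all gene areas, 43.4% were above it and 2.26% at least 2-fold higher, with a median of -0.059. After Tbx21 came Tbr1, a factor of cortical neurons, at 0.45, with 15.5 in Th1 against 10.1 to 12.1 elsewhere. The limb factor genes Tbx3 and Tbx4 were lowest (-0.29 and -0.30). Among 10 homeobox genes, Hlx included, 9 passed the filter, 4 lay above 0 and none reached 2-fold, beside the same shares of all gene areas. Barx1 and Lbx1 were highest (0.28 and 0.27) and Barx2 and Dbx2 lowest (-0.50 and -0.58). Lbx1 did not pass the filter, with 5hmC of 4 to 5.5 over the 5 libraries.

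The gene areas whose 5hmC profile over the 5 libraries was most like that of each member were looked for among 14945 candidates, by the root mean square (RMS) difference of log2 values centred per gene. For Tbx21 these were Spry1, Crnn and Fam133b (RMS 0.094, 0.11 and 0.13). Spry1, an inhibitor of growth factor signalling, had 32.2 in Th1, 21 in Th2, 13.7 under the iTreg label, 10.5 under the Th17 label, and 13.9 in naive cells. For Ifng they were Fam82a2, Hoxc10 and Socs2, a cytokine feedback inhibitor (0.11, 0.11 and 0.12). For Il22 they were Cyr61, Rnf222 and Edn1 (0.076, 0.093 and 0.11), for Mdm1 Swap70, Depdc7 and Psd (0.025, 0.038 and 0.038), for Eomes Htatip2, Rbm27 and Wdr66 (0.019, 0.024 and 0.028), and for Hlx Lpl, Fzd6 and Ms4a10 (0.060, 0.065 and 0.067). Typical candidates lay at 0.33 to 0.68, the medians for the 6 genes. Between members the nearest profiles were those of Ifng and Tbx21 (0.28), and the farthest those of Tbx21 and Hlx (0.83). All these profiles share the same 5 libraries.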

How the data were processed

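The deposited table holds 1 signal value per gene area and library, the mean over the span, never negative and rounded by the authors to 1 decimal, per the file headers and values. The tool CASAVA 1.7.0 and build mm9 are named per the submitters' processing notes. For alignment settings, duplicate removal and scaling the sources used here give nothing, so depth is unknown. Columns were matched by the sample number in the titles, and 0 columns were left unused. Of 37752 rows, 208 repeated a symbol, and the row with the highest mean was kept. Gene lengths equal end minus start plus 1.

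Values were used as deposited, with a pseudocount of 0.2 (5th percentile of non-zero values). Counts used 28159 gene areas with a mean of at least 3.31 (25th percentile). Antibodies were set against each other in limma 3.58.1 under R 4.3.3 (trend, cell type as block, Benjamini-Hochberg over all gene areas), and calls required 2-fold and an adjusted p below 0.05. Other steps used Python 3.11.15, numpy 2.4.6, pandas 2.3.3 and matplotlib 3.10.9, and scripts were tested on simulated data. The 6 genes and 5 gene lists were chosen with earlier results of these data known. Named genes were the members, areas within 500 kb of Ifng, the 2 highest and 2 lowest of each list (1 of these genes is not reported here) and the 3 most similar profiles per member; a few others are named as examples after their values were seen. Alternatives were pseudocounts, scalings, filters, libraries left out and no block.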

Additional observations from a re-analysis of the deposited data

Results flagged for a closer look

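Eomes had a 5hmC signal of 20.4 in the naive library, far from the band of 11.5 to 13 in the 4 differentiated libraries. The gap to the nearest of them, divided by the whole range, was 0.831, above Dixon's critical value of 0.71 for 5 samples. Chance alone marks about 1 in 20 groups of like samples, but the 5 libraries are different cell types, so that rate does not carry over. Naive 5hmC was above the other 4 libraries at 44.9% of gene areas. The share of all gene areas past this critical value was not computed. The measure used the values as deposited and was not taken on scaled ones. Under upper-quartile scaling the log2 differences of Eomes from naive shrank to -0.29 in Th1 and -0.50 in Th2. They were -0.30 under the iTreg label and -0.17 under the Th17 label, so the flag may depend on scaling. The same measure was taken at all 6 genes for both antibodies, and no other gene passed it.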

How the results depend on the processing

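Of 330 recomputed differences of the 6 genes, 294 kept their direction and their side of 2-fold, 12 dropped under 2-fold, 5 passed it, 14 small ones changed sign and 5 reversed. The 5 reversals came from dividing each library by its median: 5hmC minus input at Ifng (-0.20) and Mdm1 (-0.052), 5hmC minus IgG at Mdm1 (-1.02) and Tbx21 (-0.80), and 5mC minus input at Tbx21 (0.32). It also turned 5mC minus input positive at Mdm1 (1.03), Hlx (0.98) and Eomes (0.65). For Th1 minus the mean of the other 4, Ifng passed 2-fold under upper-quartile scaling (1.04), and against naive and Th2 only Tbx21 came to 0.99, Hlx to 0.070 and Mdm1 to -0.10. Hlx stood at 0.14 above naive in Th1 under upper-quartile scaling. The small differences from naive of the library labelled Th17 at Ifng and Tbx21 (0.13 and 0.060) and of that labelled iTreg at Tbx21 (0.039) turned positive under median-ratio scaling, which shifts Th17 by 0.30 and Th1 by 0.19.

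Counts for Th1 minus naive were 333 higher and 2860 lower in gene areas of at least 3000 bp (fewer tested), 2795 higher with no filter (more tested) and 3003 lower under median-ratio scaling. For Th1 minus the other 4 they were 63 higher and 110 lower in long gene areas, and 1683 and 1455 with no filter. In limma, no centring, which keeps the gap between antibodies, gave Ifng 3.88, Tbx21 4.55, Eomes 3.98, Mdm1 3.24 and Hlx 2.71 (the last 2 reversed), with 28089 gene areas higher and 3 lower. With no filter 6035 were lower, and with a pseudocount of 1 846, where Il22 (0.84) and Hlx (-0.62) lost their calls. Leaving out each cell type in turn gave 0.93 to 1.45 at Il22 and -1.17 to -0.88 at Hlx, and without iTreg and Th17, added after seeing the data, Il22 had 1.03 (limma adjusted p = 0.118) and Tbx21 1.17. With no replicate block the counts were 3624 and 1673, and no call among the 6 changed. The deviations of a cell type's 5hmC and 5mC libraries correlated at -0.12 to 0.03. For the calls that changed, the cause was not tested. Signal over background, not read depth, is all that can be judged, and 5mC values of a few rounding steps limit every 5mC ratio.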

Other observations

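A few genes outside the 6 stood out within the fixed lists and are named after their values were seen. Ccl5, a chemokine of effector T cells, had 5hmC of 42.8 in Th1, 41.6 in Th2, 43.9 under the iTreg label, 27.9 under the Th17 label, and 13 in naive cells, so all 4 were at least 2-fold above naive. Bhlhe40, a transcription factor of cytokine-producing T cells, had 53.1 in Th1 and 75.3 in Th2, against 19.6 in naive cells. Irf1, an interferon-induced factor of the Th1 response, was highest in naive cells, with 58.9 in Th1, 38.3 in Th2, 44.2 under the iTreg label, 17.7 under the Th17 label, and 141.2 in naive cells. Cxcr3, the chemokine receptor used to mark Th1 cells, had 15.4 in Th1 and 18.2 in naive cells for 5hmC, and 1.8 in Th1 and 0.8 in naive cells for 5mC.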
